A study of Homo sapiens with 18 samples.

Results

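The NRF2 target redox genes described here are 9 genes of heme breakdown, glutathione synthesis, thioredoxin-linked reduction and NADPH supply: HMOX1, GCLC, GCLM, TXNRD1, SRXN1, NQO1, PGD, TALDO1 and ME1. They were taken by gene symbol, and all 9 were found among the 27781 genes of the count table. The RNA came from K562, a human BCR-ABL1-positive leukemia line of erythroid type, collected 48 hours after transfection with gapmers, which are antisense oligonucleotides that direct RNase H to the RNA they pair with. The knockdown group received gapmers aimed at the backsplice junction of circPCMTD1, which is a circular RNA made from PCMTD1, and the scrambled group received scrambled gapmers. The treatment labels and protocol name gapmers, while the sample descriptions name siRNA, and gapmers are taken here. Each group had 3 biological replicates with 3 technical libraries each, so 18 libraries were summed to 6 samples. All cells are of a single line, every sample was transfected with an oligonucleotide, and no untransfected cells are included.

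NRF2, encoded by NFE2L2, is a transcription factor that KEAP1 holds and presents to a CUL3 ubiquitin ligase for destruction. Oxidants and electrophiles modify KEAP1, NRF2 then accumulates, pairs with a small MAF protein and binds antioxidant response elements near genes that make glutathione, reduce thioredoxin and supply NADPH. BACH1 competes for the same elements and leaves them when heme is abundant, and HMOX1 is the textbook gene under that control.

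Of the 9 genes, 8 had enough counts to be tested, and 2 of them were lower in knockdown cells. GCLC, the catalytic subunit of glutamate-cysteine ligase, fell by 10.3%, and SRXN1, sulfiredoxin, fell by 9.28%. Over all libraries 0 of the 8 passed as higher in edgeR's quasi-likelihood test, 0 were higher at an unadjusted p below 0.05, and DESeq2 called 0 higher. TALDO1 passed as higher in edgeR with the knockdown libraries 3_2 and 3_3 left out (adjusted p = 0.00083) or without knockdown replicate 3 (0.00702). Of all 15678 genes tested, 18.6% were called at an adjusted p below 0.05, 7.49% as lower and 11.1% as higher, beside 2 of the 8 members. The median log2 fold change was -0.04 over the 8 members and 0.00 over all tested genes (knockdown over scrambled). HMOX1 was close to absent in both groups.

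The libraries held 19118533 to 29432699 counts, and the summed samples 63851576 to 76087774. PCMTD1, the host gene of the target, averaged 12.3 ± 0.515 CPM, library-scaled counts, in knockdown cells and 20.6 ± 1.13 CPM in scrambled cells (SD, n = 3 each). A count per gene does not separate circular from linear RNA, and how much of either it holds was not measured. The 7 erythroid markers GATA1, TAL1, KLF1, HBG1, HBG2, HBZ and LMO2 summed to 10310 to 11020 CPM in knockdown and 9940 to 10120 CPM in scrambled samples. HBG1 and HBG2 made up most of these sums. Taken singly, HBG1, HBG2, HBZ and LMO2 were higher in knockdown without overlap, and GATA1 and KLF1 overlapped. TAL1 was lower without overlap, at 227.4 to 232.1 CPM in knockdown and 247.6 to 254.5 CPM in scrambled samples. Of all tested genes, 18.1% were higher and 16.5% lower in knockdown without overlap. The labels name lymphoblasts, but the 4 B-lymphoid markers CD79A, CD79B, MS4A1 and PAX5 summed to 0.2625 to 0.328 CPM in knockdown and 0.198 to 0.291 CPM in scrambled samples. Of the 4 T-lymphoid markers only CD3D exceeded 1 CPM, at 6.31 to 6.53 CPM in knockdown and 4.38 to 4.88 CPM in scrambled samples. Of the epithelial markers KRT8, KRT18 and EPCAM were present and CDH1 was below 1 CPM, and the 3 fibroblast markers summed to 1.99 to 2.58 CPM in knockdown and 2.21 to 2.83 CPM in scrambled samples. Knockdown libraries 3_2 and 3_3 stood apart by transcript GC. Their median log2 deviations from the mean of the other 8 knockdown libraries were 0.088 and 0.123 in the lowest-GC 10% of genes and -0.153 and -0.176 in the highest-GC 10%. In the other 7 knockdown libraries these deviations ran from -0.065 to 0.015 and from -0.014 to 0.083. CPM values are shares of a library, so fewer cells with an RNA and less of it per cell cannot be told apart.

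The promoters are shown because the members are grouped by a shared binding element. RefSeq windows (GRCh38.p14) from 250 bases before to 50 bases after the start were at hand for 8 of the 9 members, with 2 starts for TXNRD1 and none for HMOX1. They were searched on both strands for TGACNNNGC, the core of the antioxidant response element, which occurred in 13.3% of all 35116 windows of that length. It was found in GCLM, TXNRD1, ME1 and PGD, 4 of 8 members, and not in the windows of GCLC, SRXN1, NQO1 and TALDO1. The upstream ME1 site also holds TGANTCA, the AP-1 motif, which overlaps it there and occurred in 7.71% of all windows and in no other member's window. A match is a description of letters and not of binding, and a window without one says nothing about elements farther away. The sites with 16 bases to each side are given 5′ to 3′ on the gene's strand, with the match in capitals (as its reverse complement where the match is on the other strand).
GCLM, chr1:93909440-93909480, minus strand: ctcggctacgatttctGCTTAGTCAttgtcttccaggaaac
TXNRD1 first start, upstream site, chr12:104215664-104215704, plus strand: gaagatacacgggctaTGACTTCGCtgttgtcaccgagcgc
TXNRD1 first start, site at the start, chr12:104215755-104215795, plus strand: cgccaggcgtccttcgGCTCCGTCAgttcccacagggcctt
TXNRD1 second start, chr12:104286914-104286954, plus strand: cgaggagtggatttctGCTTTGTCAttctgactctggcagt
ME1 upstream site, chr6:83431164-83431204, minus strand: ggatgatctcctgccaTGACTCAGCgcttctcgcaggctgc
PGD, chr1:10398847-10398887, plus strand: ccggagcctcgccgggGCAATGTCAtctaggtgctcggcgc

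Counted from the start, where -1 is the base before it, the match covered -34 to -26 in GCLM, -99 to -91 at the first TXNRD1 start, -102 to -94 at the second, -137 to -129 in ME1 and -201 to -193 in PGD. The other TXNRD1 match began at -8 of the first start and ended on its first transcribed base, and a further ME1 match lay at bases 12 to 20 of the transcript. GCLC and SRXN1, the members that fell, had no match in their windows, and the 250 bases before their starts are printed for that reason. The GCLC stretch has 60.8% GC and the SRXN1 stretch 80.4%.
GCLC, chr6:53545102-53545351, minus strand: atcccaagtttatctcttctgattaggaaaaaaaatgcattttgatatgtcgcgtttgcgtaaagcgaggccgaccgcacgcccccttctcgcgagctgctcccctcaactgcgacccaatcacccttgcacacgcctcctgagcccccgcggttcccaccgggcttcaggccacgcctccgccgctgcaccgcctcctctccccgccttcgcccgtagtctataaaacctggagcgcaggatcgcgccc
SRXN1, chr20:653201-653450, minus strand: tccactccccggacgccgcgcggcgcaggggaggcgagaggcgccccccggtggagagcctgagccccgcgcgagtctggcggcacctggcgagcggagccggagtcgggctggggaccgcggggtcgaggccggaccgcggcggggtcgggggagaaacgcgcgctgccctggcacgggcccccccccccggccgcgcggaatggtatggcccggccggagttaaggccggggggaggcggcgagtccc

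Heme oxygenase 1, encoded by HMOX1 (chromosome 22, 35380361 to 35394214, plus strand, GRCh38), opens the heme ring and releases iron, carbon monoxide and biliverdin. It had 12, 1 and 3 counts in knockdown replicates 1 to 3 and 6, 3 and 3 counts in scrambled replicates 1 to 3. In 4 of 9 knockdown libraries and 3 of 9 scrambled libraries it had no count. Summed over a group this is 0.0805 CPM in knockdown cells (exact Poisson 95% interval 0.046 to 0.131) and 0.0563 CPM in scrambled cells (0.0291 to 0.0983), intervals that cover counting error only. The ratio was 1.43 with an exact counting interval of 0.635 to 3.31, so no difference was detectable at this depth, and the gene was too low for the test. Its paralog HMOX2, the constitutive form, averaged 629 times as many CPM over the 6 samples. HMOX2 had a log2 fold change of -0.04 (SE 0.035, adjusted p = 0.429 in edgeR).

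Glutamate-cysteine ligase makes the first and limiting bond of glutathione, with GCLC as the catalytic and GCLM as the modifier subunit. GCLC (chromosome 6, 53497341 to 53616970, minus strand) stood at 18.8, 18.4 and 18.6 CPM in the knockdown samples and at 20.9, 20.4 and 20.9 CPM in the scrambled samples. All 3 knockdown values lay below all 3 scrambled values. On the log2 scale the difference was -0.16 (SE 0.043), and it passed in edgeR (adjusted p = 0.0121). Over single libraries the lowest, median and highest values were 16.97, 18.5 and 19.9 CPM in knockdown and 18.9, 20.6 and 23.7 CPM in scrambled cells, and 6 of 9 knockdown libraries lay below every scrambled library. Leaving out scrambled replicate 1 (adjusted p = 0.0605) or 3 (0.0515), or using only the first technical library of each replicate (0.0983), ended the call in edgeR, while the log2 fold change stayed between -0.169 and -0.145 over all 20 alternatives.

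GCLM (chromosome 1, 93885205 to 93909456, minus strand) stood at 93.5, 94.4 and 95.2 CPM in knockdown and 97.9, 96.6 and 103 CPM in scrambled samples. The groups did not overlap, but the log2 fold change of -0.07 (SE 0.032) did not pass in edgeR (adjusted p = 0.13). It passed with the GC correction (log2 fold change -0.09, adjusted p = 0.00102), on leaving out the knockdown libraries 3_2 and 3_3 (-0.07, adjusted p = 0.00614), without knockdown replicate 3 (0.0131), with libraries entered singly (0.0246) and with the GC correction and replicate block (0.00177), all in edgeR. The log2 ratio of GCLC to GCLM counts, which needs no scaling, averaged -2.34 ± 0.029 in knockdown and -2.255 ± 0.038 in scrambled samples (SD, n = 3 each). Knockdown values of -2.31, -2.36 and -2.36 lay below scrambled values of -2.225, -2.24 and -2.30, a difference of -0.09. The two-sided exact permutation test gave p = 0.1, the smallest that 3 against 3 samples allow, and 0.2 after Benjamini-Hochberg adjustment over 4 such ratios.

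The thioredoxin branch holds TXNRD1, the cytosolic selenoprotein that reduces thioredoxin with NADPH, and SRXN1, which restores overoxidised peroxiredoxins. SRXN1 (chromosome 20, 646615 to 653370, minus strand) stood at 46.8, 46.5 and 43.4 CPM in the knockdown samples and at 48.8, 51.4 and 50.45 CPM in the scrambled samples. The groups did not overlap, and knockdown replicate 3 was the lowest. On the log2 scale SRXN1 differed by -0.14 (SE 0.037), which passed in edgeR (adjusted p = 0.01). Over single libraries SRXN1 ran over 41.98, 45.5 and 48.25 CPM in knockdown and 46.3, 50.01 and 54.2 CPM in scrambled cells (lowest, median, highest), and the lowest knockdown libraries were 3_3 at 41.98 and 3_2 at 43.1 CPM. Without those 2 libraries the log2 fold change was -0.12 (edgeR, adjusted p = 0.000604), and leaving out scrambled replicate 2 gave -0.12 and ended the call (adjusted p = 0.0804).

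TXNRD1 (chromosome 12, 104215779 to 104350305, plus strand) stood at 231, 224 and 231 CPM in knockdown and 239, 238 and 239 CPM in scrambled samples. The groups did not overlap, and 8 of 9 knockdown libraries lay below every scrambled library. The log2 fold change of -0.06 (SE 0.026) did not pass in edgeR (adjusted p = 0.0876). It passed in DESeq2 (-0.07, adjusted p = 0.0473), with the GC correction (0.00226), on leaving out the knockdown libraries 3_2 and 3_3 (0.000211) and in 5 further alternatives, and ran from -0.07 to -0.05 over all 20. EID3, a gene inside TXNRD1 on the same strand, was counted at 3.46 CPM in knockdown and 3.79 CPM in scrambled cells. At SRXN1, GENCODE places a further protein-coding model, AL121758.1, on the same strand, and that model is not among the rows of the count table.

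NQO1, the quinone reductase that is a standard readout of NRF2, did not pass the test. NQO1 (chromosome 16, 69706996 to 69726951, minus strand) stood at 45.9, 46.5 and 45.9 CPM in knockdown and 46.2, 44.4 and 45.9 CPM in scrambled samples, and the groups overlapped. The log2 fold change was 0.02 (SE 0.034, adjusted p = 0.737 in edgeR), with an approximate 95% interval of -0.05 to 0.09.

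**Figure D1:**
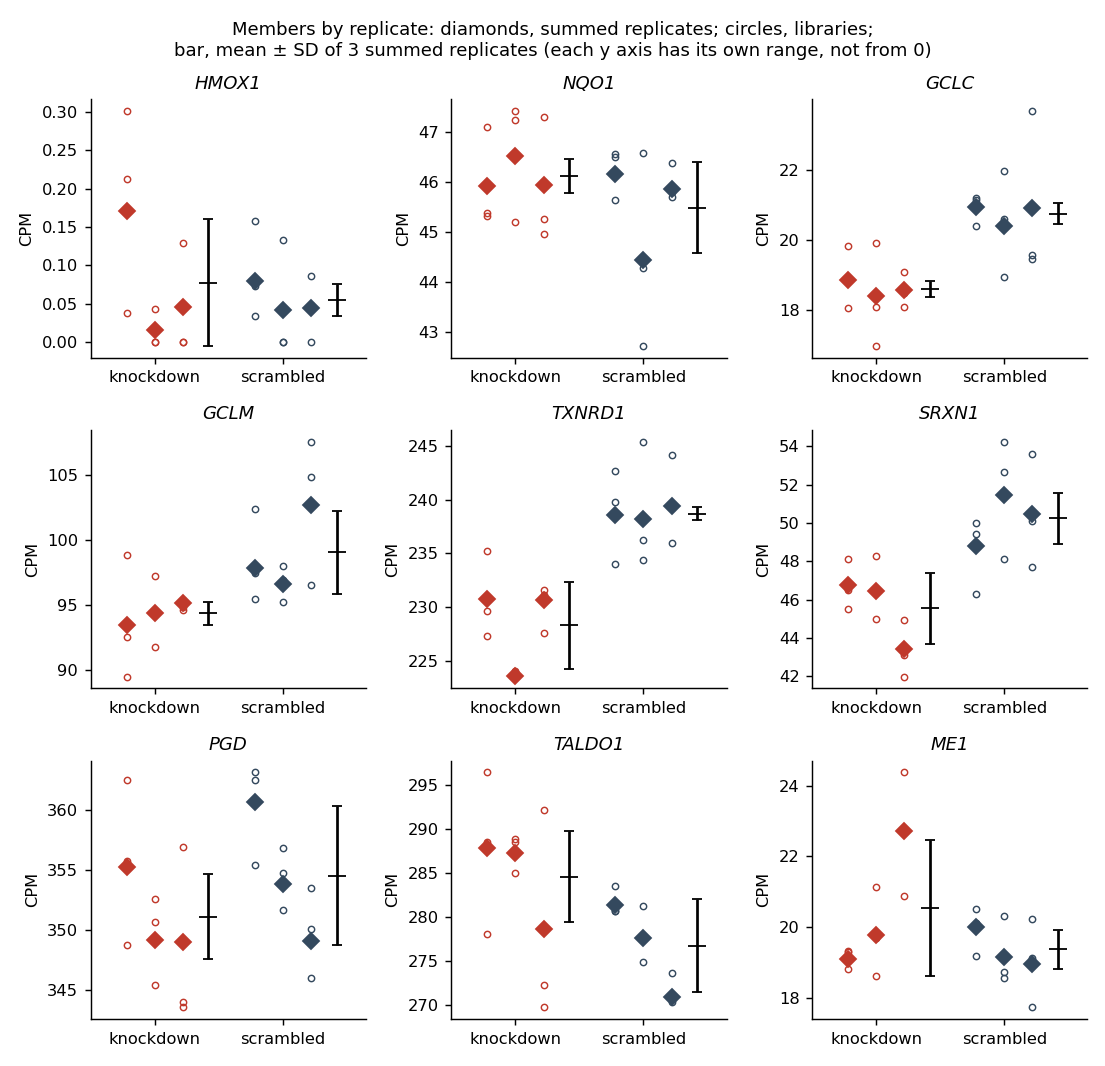
CPM of the 9 members in knockdown (red, left) and scrambled (slate blue, right) cells, with summed replicates as diamonds, single libraries as circles and the mean ± SD of 3 summed replicates as a bar; each y axis has its own range. GCLC, GCLM, TXNRD1 and SRXN1 have all 3 knockdown diamonds below all 3 scrambled diamonds, and HMOX1 is highest in 1 knockdown library at 0.3005 CPM.

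NADPH, the electron source of both the glutathione and the thioredoxin branch, is made by PGD of the pentose phosphate pathway and by malic enzyme ME1, and TALDO1 returns sugars to that pathway. PGD (chromosome 1, 10398592 to 10420144, plus strand), which yields NADPH in the oxidative arm, stood at 355, 349 and 349 CPM in knockdown and 361, 354 and 349 CPM in scrambled samples. The groups overlapped and the log2 fold change was -0.01 (SE 0.024, adjusted p = 0.751 in edgeR), with an approximate 95% interval of -0.06 to 0.03. TALDO1 (chromosome 11, 747329 to 765024, plus strand), the transaldolase of the non-oxidative arm, stood at 288, 287 and 279 CPM in knockdown and 281, 278 and 271 CPM in scrambled samples. The groups overlapped through knockdown replicate 3, and the log2 fold change was 0.04 (SE 0.026, adjusted p = 0.304 in edgeR). Without knockdown libraries 3_2 and 3_3, which held 272 and 270 CPM of TALDO1, the log2 fold change was 0.06 and passed as higher (adjusted p = 0.00083 in edgeR), while with the GC correction it did not pass (0.0777).

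ME1 (chromosome 6, 83210389 to 83431071, minus strand), which makes NADPH from malate, stood at 19.1, 19.8 and 22.7 CPM in knockdown and 20, 19.2 and 18.9 CPM in scrambled samples. Knockdown replicate 3 was above all others and the rest overlapped. The log2 fold change was 0.08 (SE 0.054, adjusted p = 0.321 in edgeR). Knockdown libraries 3_2 and 3_3 held 22.7 and 24.4 CPM of ME1, whose transcript has 39.5% GC, and without them the log2 fold change was 0.02 (adjusted p = 0.75). The part of GC content in the ME1 value was not tested beyond the GC correction, which gave 0.07.

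Ratios to pathway partners were also taken for TALDO1 and HMOX1. The log2 ratio of TALDO1 to TKT, the transketolase of the same arm, averaged -0.13 ± 0.020 in knockdown and -0.13 ± 0.012 in scrambled samples (exact permutation p = 1, n = 3 each). The log2 ratio of HMOX1 to HMOX2 averaged -9.69 ± 1.72 in knockdown and -9.64 ± 0.481 in scrambled samples (exact permutation p = 1, n = 3 each), on the few HMOX1 counts given above.

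Across the 8 tested members, 4 had knockdown CPM wholly below the scrambled CPM and 0 wholly above, where 34.6% of all tested genes did not overlap between groups, 16.5% with knockdown lower and 18.1% with knockdown higher. In TPM, which scales counts per exon length to a fixed sum and uses no TMM factors, 2 lay wholly below, GCLC and SRXN1, and 2 wholly above. TALDO1 then stood at 229, 228 and 231 TPM in knockdown and 218, 220 and 216 TPM in scrambled samples, and NQO1 at 33.77, 34.1 and 35.1 TPM in knockdown and 33.05, 32.5 and 33.73 TPM in scrambled samples. GCLM and TXNRD1 overlapped between groups on that scale. The share of all genes without overlap was not taken in TPM, so these counts have no background beside them. Why the 2 scales differ was not tested. On the log2 CPM scale the SD between technical libraries ran from 0.021 in PGD to 0.098 in GCLC, and the SD between replicate means from 0.017 in TXNRD1 to 0.093 in ME1. In 7 of the 8 the technical SD was the larger, and in ME1 the SD between replicate means was. The technical SD is of single libraries and the other of means of 3 libraries, which vary less. Their order therefore does not tell which source of spread was larger.

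**Figure D2:**
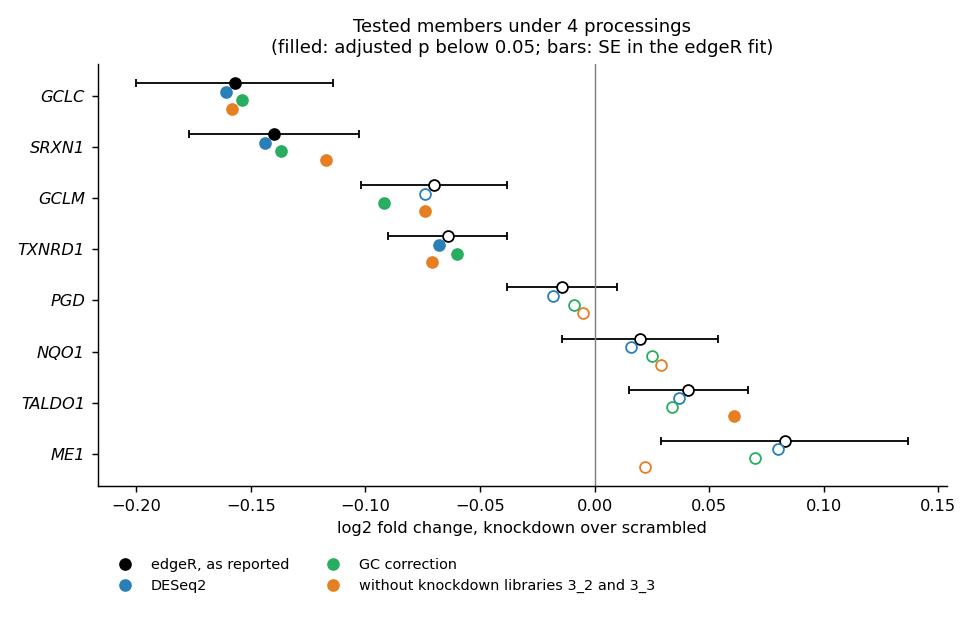
Log2 fold change (knockdown over scrambled) of the 8 tested members in the edgeR fit with its SE, in DESeq2, with a GC correction and with the knockdown libraries 3_2 and 3_3 left out; filled points have an adjusted p below 0.05. GCLC and SRXN1 are filled in all 4, TXNRD1 in 3, GCLM in 2 and TALDO1 in 1, and PGD, NQO1 and ME1 in 0.

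Levels were compared between members per exon length, in TPM, counts divided by GENCODE 29 exon length and scaled to a fixed sum per sample. PGD was highest at 287 ± 5.82 TPM in knockdown and 283 ± 1.05 TPM in scrambled cells, followed by TALDO1 at 229 ± 1.21 and 218 ± 1.963 TPM and TXNRD1 at 82.5 ± 2.97 and 84.3 ± 1.29 TPM (SD, n = 3 each, knockdown before scrambled). SRXN1 at 40.9 ± 0.753 TPM in knockdown and 44.1 ± 1.71 TPM in scrambled cells and GCLM at 42.2 ± 1.32 and 43.3 ± 1.81 TPM overlapped and cannot be ordered. NQO1 followed at 34.3 ± 0.699 TPM in knockdown and 33.1 ± 0.628 TPM in scrambled cells, and ME1 at 14.8 ± 1.74 and 13.6 ± 0.199 TPM. GCLC came next at 5.21 ± 0.132 TPM in knockdown and 5.68 ± 0.0919 TPM in scrambled cells, and HMOX1 last at 0.078 and 0.0545 TPM. Apart from SRXN1 and GCLM, neighbours in this order did not overlap over the 6 samples. Exon lengths sum all annotated exons, 8646 bases for GCLC, so a gene with many unused exons is set too low.

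**Figure D3:**
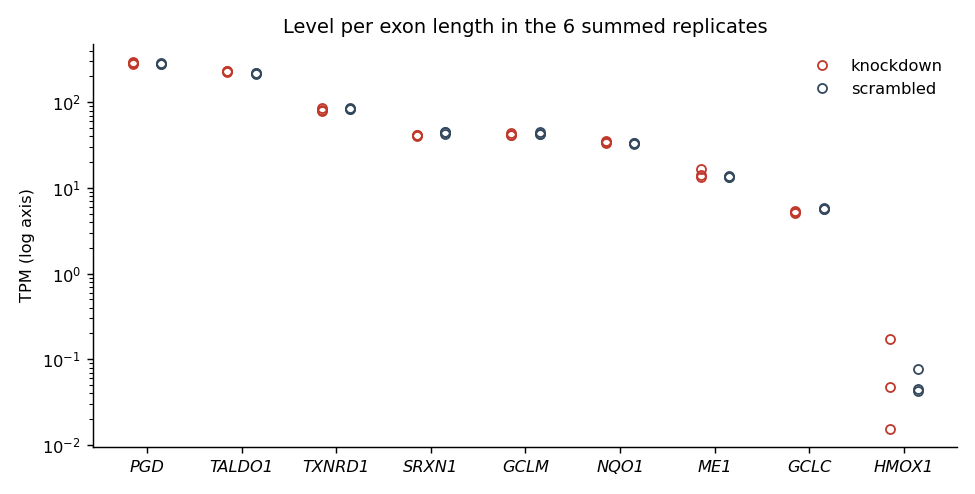
Level per exon length (TPM, log axis) of the 9 members in the 3 knockdown (red, left of each pair) and 3 scrambled (slate blue, right) samples, from highest to lowest. PGD lies at 281 to 293 TPM and TALDO1 at 216 to 231 TPM, while the highest HMOX1 value is 0.1705 TPM.

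The regulators of NRF2 were examined next, and 1 of 12 was called, lower, where 18.6% of all genes were called. The count was 6 lower with the GC correction, 5 with the knockdown libraries 3_2 and 3_3 left out and 4 without knockdown replicate 3. Those alternatives called more of all genes as well, at 31.5%, 32.0% and 29.8% in that order. In all 20 alternatives 0 regulators were higher. SQSTM1, the autophagy receptor p62 that binds KEAP1 and is itself an NRF2 target, fell to 201 ± 5.49 CPM in knockdown cells, against 221.5 ± 3.73 CPM in scrambled cells (SD, n = 3 each), with a log2 fold change of -0.14 (SE 0.028, adjusted p = 0.00114 in edgeR). NFE2L2 averaged 98.5 ± 5.36 CPM in knockdown and 103 ± 0.423 CPM in scrambled cells, KEAP1 97.7 ± 3.95 and 102 ± 0.538 CPM, and BACH1 127 ± 5.30 and 132.5 ± 1.14 CPM. Their log2 fold changes of -0.06 each did not pass (adjusted p = 0.233 for NFE2L2, 0.247 for KEAP1 and 0.193 for BACH1 in edgeR). With the GC correction all 3 passed as lower (adjusted p = 0.0442 for NFE2L2, 0.00192 for KEAP1 and 0.000937 for BACH1). With libraries 3_2 and 3_3 of the knockdown left out, NFE2L2 and BACH1 passed (-0.09 for each, adjusted p = 0.000694 for NFE2L2 and 0.000132 for BACH1), and KEAP1 did not (-0.02, adjusted p = 0.595). The median over the 12 regulators was -0.06. RNA levels do not measure NRF2 protein, which KEAP1 controls.

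Genes of glutathione supply and use moved both ways, with 4 lower and 8 higher of 31 tested (33 listed). That was 38.7% called, beside 18.6% of all genes, and the median log2 fold change was 0.055. The cystine importer that feeds GCLC with its substrate was lower in both chains: SLC7A11 fell to 42.8 ± 1.52 CPM in knockdown cells, against 53.6 ± 1.36 CPM in scrambled cells, and SLC3A2 fell to 221 ± 8.05 CPM, against 270.5 ± 2.45 CPM (SD, n = 3 each). Their log2 fold changes were -0.32 (SE 0.036, adjusted p = 1.37e-06 in edgeR) and -0.29 (SE 0.028, adjusted p = 1.68e-07), larger in size than those of the 8 tested members. Both genes are also known targets of ATF4, as is CHAC1, a glutathione-degrading enzyme at -0.40 (adjusted p = 0.000463 in edgeR). Like the other genes of this list outside SLC7A11, SLC3A2 and GSTM4, CHAC1 was chosen after its values were seen. A part of ATF4 in these values was not tested. OPLAH, the oxoprolinase of the glutathione cycle, was the remaining lower gene at -0.16 (adjusted p = 0.00615 in edgeR). Among the higher genes GSTM4, a mu-class glutathione transferase, rose to 22.1 ± 0.970 CPM in knockdown cells, against 17.1 ± 0.259 CPM in scrambled cells (log2 fold change 0.37, SE 0.045, adjusted p = 4.86e-06 in edgeR). GSTM2 at 0.68 and GSTM3 at 0.34 also rose, from levels under 4 CPM (adjusted p = 0.000202 and 0.0176 in edgeR). Mu-class genes are similar to one another to differing degrees, and reads of the closest may be split between them. GSS and GSR, which finish and recycle glutathione, had log2 fold changes of -0.00 and 0.05 and did not pass.

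In the thioredoxin and peroxiredoxin list 2 were lower and 2 higher of 19 tested (20 listed), with a median of 0.03. That was 21.1% called, near the 18.6% of all genes. SESN2, a sestrin induced by stress, fell to 68.85 ± 2.82 CPM in knockdown cells, against 81.3 ± 0.108 CPM in scrambled cells (log2 fold change -0.24, SE 0.033, adjusted p = 2.54e-05 in edgeR). The methionine sulfoxide reductases MSRB1, a selenoprotein, and MSRB2, of mitochondria, rose by 0.24 and 0.28 on the log2 scale (adjusted p = 0.000483 for MSRB1 and 0.0116 for MSRB2 in edgeR). On leaving out scrambled replicate 2 or 3, MSRB2 did not pass (edgeR, adjusted p = 0.0577 and 0.0706). TXN and PRDX1, the direct partners of TXNRD1 and SRXN1, had log2 fold changes of -0.06 and -0.065 and did not pass (adjusted p = 0.176 for TXN and 0.0617 for PRDX1 in edgeR).

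Other NADPH sources had 3 lower and 4 higher of 19 tested (20 listed), with a median of 0.005 (36.8% called, beside 18.6% of all genes). IDH2, the mitochondrial isocitrate dehydrogenase, rose to 81.5 ± 1.71 CPM in knockdown cells, against 69.1 ± 0.314 CPM in scrambled cells (log2 fold change 0.24, SE 0.031, adjusted p = 1.05e-05 in edgeR). IDH1, its cytosolic counterpart, fell to 69.6 ± 2.12 CPM in knockdown cells, against 76.95 ± 0.379 CPM in scrambled cells (log2 fold change -0.145, SE 0.032, adjusted p = 0.00286 in edgeR); this gene was named after its value was seen. The folate-linked mitochondrial genes ALDH1L2 and MTHFD2 fell by 0.25 and 0.15 on the log2 scale (adjusted p = 0.000205 for ALDH1L2 and 0.00061 for MTHFD2 in edgeR). Both are known targets of ATF4, whose part in these values was not tested.

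Heme breakdown and ferritin genes had 1 of 7 lower, 0 higher and a median of 0.02, beside 18.6% of all genes called. The number higher was 3 without knockdown replicate 3 or with the knockdown libraries 3_2 and 3_3 left out, and 2 with the GC correction or the replicate block. Those alternatives called 29.8%, 32.0%, 31.5% and 25.4% of all genes, in that order. FTH1, the ferritin heavy chain, fell to 1035 ± 12.8 CPM in knockdown cells, against 1089 ± 14.1 CPM in scrambled cells (log2 fold change -0.07, SE 0.022, adjusted p = 0.023 in edgeR), a call lost with library totals in place of scaling factors (edgeR, adjusted p = 0.053) and on leaving out any replicate other than knockdown replicate 3 (0.0569 to 0.14). Processed copies of FTH1 can share its reads. At an unadjusted p below 0.05, 2 of these 7 genes were higher in edgeR.

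Further NRF2 targets had 3 lower and 2 higher of 21 tested (26 listed), with a median of 0.03 (23.8% called, beside 18.6% of all genes). OSGIN1, an oxidative stress-induced growth inhibitor, fell to 3.795 ± 0.0808 CPM in knockdown cells, against 4.745 ± 0.0653 CPM in scrambled cells (log2 fold change -0.32, SE 0.076, adjusted p = 0.00457 in edgeR), and was at -0.13 (adjusted p = 0.593) with the first technical libraries. ABCC3, a transporter of conjugated organic anions, rose to 0.612 ± 0.116 CPM in knockdown cells, against 0.280 ± 0.0381 CPM in scrambled cells (log2 fold change 1.12, SE 0.249, adjusted p = 0.00287). The channel gene PANX2 rose by 0.24 (edgeR adjusted p = 0.0142, against 0.0573 in DESeq2, and 0.0512 or 0.104 on leaving out knockdown replicate 2 or scrambled replicate 1). Superoxide and peroxide enzymes had 0 lower and 2 higher of 6 tested (7 listed), with a median of 0.04 (33.3% called, beside 18.6% of all genes). At an unadjusted p below 0.05 in edgeR 0 of them were lower. CYBA, the p22phox subunit of NADPH oxidases, which make superoxide, rose by 0.17 on the log2 scale (adjusted p = 0.00361 in edgeR), and SOD3, extracellular superoxide dismutase at 0.562 CPM in knockdown and 0.319 CPM in scrambled cells, by 0.82 (adjusted p = 0.0192, but 0.0677 and 0.104 on leaving out knockdown replicate 1 and scrambled replicate 2).

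**Figure D4:**
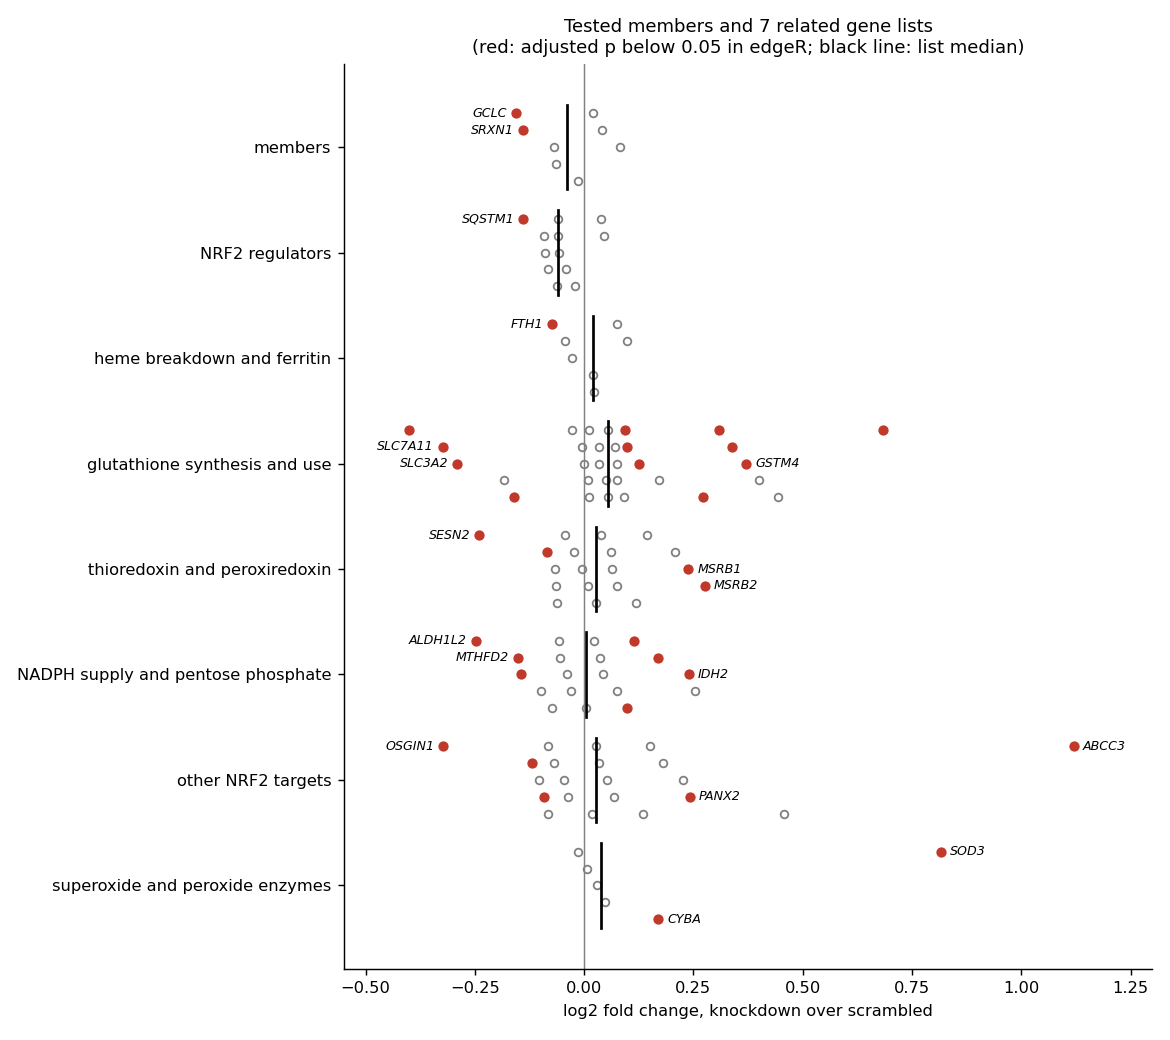
Log2 fold change (knockdown over scrambled) of each tested member and of each tested gene in 7 related lists, with called genes in red, the others open, and the list median as a black line. All 7 related lists have medians between -0.06 and 0.055, and called genes lie on both sides of 0 in the glutathione, thioredoxin, NADPH and further-target lists.

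Together the 7 related lists had 14 lower and 18 higher of 115 tested genes (27.8% called, beside 18.6% of all genes). The GC correction made the lower and higher counts 27 and 29, where 31.5% of all tested genes were called. Leaving out the knockdown libraries 3_2 and 3_3 made them 27 and 32, where 32% were called.

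The count of members called is given with the share of all genes called under the same alternative. It was 4 lower with libraries entered singly, which counts technical libraries as replicates (30.2% of all genes), with the GC correction (31.5%, and 31.6% with the replicate block added), and 4 lower and 1 higher on leaving out the knockdown libraries 3_2 and 3_3 (32.0%) or knockdown replicate 3 (29.8%). It was 3 lower in DESeq2 (17.7%), with the replicate block (25.4%) and in limma-voom (25.3%), GCLC, SRXN1 and TXNRD1 each time. GCLC and SRXN1 alone passed with RLE factors (19.0%), upper-quartile factors or library totals (18.4% each), no count filter (13.5%), the 5 CPM minimum (22.4%), and without knockdown replicate 1 (15.6%) or 2 (12.9%). SRXN1 alone passed with the first technical libraries (14.5%) and without scrambled replicate 1 (11.0%) or 3 (12.4%), and GCLC alone without scrambled replicate 2 (11.4%). Against a 1.2-fold change 0 members passed in edgeR, where 1.24% of all genes did.

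The genes whose pattern was nearest to a member were sought for the 3 members with the smallest p, as the smallest Euclidean distance between log2 CPM deviations over the 6 samples among 10340 genes at 5 CPM or more. For SRXN1 they were HBD, ITPKC and ULK3 at distances of 0.0338, 0.0375 and 0.0437. For GCLC they were SLC44A4, CCNL2 and AHNAK at 0.0184, 0.032 and 0.0322, and for TXNRD1 GPBP1L1, GALNT11 and MAP4 at 0.0178, 0.0215 and 0.0224. With 6 samples and this many genes, close profiles are to be found for any gene, and 0 of these 9 genes belongs to the lists described here.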

How the data were processed

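Trim Galore, STAR, featureCounts and the GRCh38 build are named in the submitters' processing notes, with no versions or roles. How featureCounts treated strand, and its annotation, are not stated there. The deposited values are whole-number counts per gene symbol and library, not normalized. Without a stated strand setting, reads of antisense genes overlapping NQO1, GCLC and TXNRD1 cannot be told apart from theirs. The same holds for a processed pseudogene on the other strand at ME1. A lincRNA at GCLC (AL033397.1) and a processed pseudogene at TXNRD1 (RPL18AP3) lie on the same strand, where a strand setting would not separate them. Neither is among the rows of the count table.

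Groups and replicate numbers came from the labels, and counts of a replicate's 3 technical libraries were added up. The whole table was fitted in edgeR 4.0.16 (R 4.3.3; filterByExpr, TMM factors, robust quasi-likelihood, Benjamini-Hochberg adjustment over 15678 genes), with genes called at an adjusted p below 0.05. CPM used TMM-scaled library sizes, and approximate 95% intervals come from the SE and a normal distribution. SEs were taken from the fold change and its F statistic. Alternatives used DESeq2 1.42.0 and limma 3.58.1, other factors and filters, a replicate block, a GC correction (lowess, span 0.3, on GENCODE 29 transcripts, with GC for 96.2% of tested genes), other uses of the technical libraries, left-out replicates or libraries and testing for changes beyond 1.2-fold. Where DESeq2 gave no adjusted p, none was assigned.

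The members and the 7 related lists were chosen with earlier results of these data known. Genes named are all members, NFE2L2, KEAP1 and BACH1, up to 3 called genes of each list by smallest p, and the nearest profiles of 3 members; others are marked as chosen later or serve as pathway partners of a member. On simulated counts for 15678 genes of knockdown against scrambled, the fit recovered 36% of genes changed 1.1-fold and 72% of those changed 1.2-fold (50 of each), with 8 false calls among 15478 unchanged genes. The simulated counts took their dispersions from these data and held no GC differences between libraries. Their rate of false calls is therefore not that of the real fit. Some genes, and 1 of the 4 ratios behind the adjusted ratio p-values, are not reported here.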

Additional observations from a re-analysis of the deposited data

How the results depend on the processing

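The fold changes of the 8 tested members kept their sign over the 20 alternatives, as did those of PCMTD1, NFE2L2, KEAP1, BACH1 and the genes named by rule from the related lists in the alternatives that tested them (15 for ABCC3, 17 for SOD3, 19 for OSGIN1). Partner genes, genes chosen later and nearest profiles were not followed singly. Over fewer alternatives (6 and 9), the ratios of HMOX1 to HMOX2 (-0.05) and TALDO1 to TKT (-0.002), both near 0, changed sign. They ran from -0.925 to 0.796 for HMOX1 to HMOX2 and from -0.011 to 0.012 for TALDO1 to TKT. The number of members called lower was 2 and became 4 with libraries entered singly, with the GC correction, with that correction and the replicate block, and without knockdown libraries 3_2 and 3_3, fell to 1 with the first technical libraries and 0 against a 1.2-fold change, and ran from 1 to 4 over left-out replicates. Members called higher numbered 0, but 1 without knockdown libraries 3_2 and 3_3 and 0 to 1 over left-out replicates. Related genes called lower (14) became 25 with libraries entered singly, 27 with the GC correction, with or without the replicate block, and without knockdown libraries 3_2 and 3_3, and 0 against a 1.2-fold change; those called higher (18) became 29 with the GC correction, 32 without those libraries and 2 against a 1.2-fold change. Over left-out replicates they ran from 10 to 25 and from 12 to 31. Leaving out a replicate also leaves fewer samples; the other causes were not tested.

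The labels do not say whether replicate numbers pair samples across the groups. Deviations of same-numbered samples correlated at 0.03, 0.011 and 0.011 over genes, and not every sample correlated best with its own number. Correlations this small neither show nor exclude such a pairing. With the replicate number as a block, 3 members were called lower, TXNRD1 among them (-0.06, adjusted p = 0.0356 in edgeR), and 25.4% of all genes were called. Depth left HMOX1 out of the main fit. Without the count filter its log2 fold change was 0.492 (adjusted p = 0.714 in edgeR). The ratio of its counts stayed undetermined within 0.635 to 3.31, an interval that covers counting error only and leaves out the spread between replicates.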
